A study of Danio rerio with 17 samples.

Results

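Livers of overfed zebrafish that received Oligo-Fucoidan were set against livers of fish on a normal diet, both from the HBx,src line. The comparison took 3 DIO+OF arrays and 3 NOR arrays of batch 1, chosen by their labels out of 17 arrays in the series. The spread was estimated over all 17, among them 8 arrays of batch 2 from HBx,src,p53 fish, which are in addition heterozygous for p53 (p53-/+) and to which the contrast is compared at the end, and every probe set of the array was tested. In HBx,src fish the X protein of hepatitis B virus, fused to mCherry, and the src oncogene are each driven by the liver promoter of fabp10a, so the NOR fish carry both oncogenes as well. All fish were labelled female and 6 months of age. DIO+OF fish were offered 83 mg of Artemia cysts per fish per day from 3 months of age for 2 months, and Oligo-Fucoidan (OF), a low molecular weight form of the sulfated polysaccharide of brown seaweed, by oral gavage at 300 mg/kg for 1 month from 4 months of age. By these ages overfeeding and OF ended before the labelled age of 6 months, and how long before sampling they ended cannot be told here. NOR fish were offered 6.9 mg of cysts and carry the label of a mock treatment. The 2 groups therefore differ in the amount of food, in OF and, as far as the sources used here describe it, in gavage under anesthesia, and these cannot be told apart in this comparison. The 3 arrays of overfed HBx,src fish without OF (DIO) are given side by side where they help to place a value. The labels do not say whether an array was made from 1 liver or from pooled livers, nor at what time of day livers were taken, and p-values measure only the spread between these arrays.

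The liver keeps its own circadian clock. Clock and Bmal1 switch on the genes of the Per and Cry repressors, of the Rev-erb nuclear receptors (nr1d genes) and of the D-box factors Dbp and Tef, and these products act back on the loop. Feeding time and metabolic state are known to set the phase of the liver clock, and the transcripts of its members rise and fall over the day. The liver is also a main site of cholesterol synthesis, whose enzymes are controlled together by the transcription factor Srebp2 (srebf2), its escort Scap and the Insig proteins that hold both in the endoplasmic reticulum.

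Values are the deposited log2 array values. The medians of the 9 HBx,src arrays lay between 2.1 and 2.21, and each array had a mean Spearman correlation of 0.805 to 0.8465 with the others of its group. The tissue label was met by its markers. The 19 hepatocyte markers had a median of 11.39 to 11.85 in the DIO+OF arrays and of 11.82 to 11.95 in the NOR arrays, and fabp10a lay at 12.46 to 12.74 in DIO+OF and at 12.51 to 12.64 in NOR. Markers of other organs also differed between arrays, although 0 of them were called. The 23 markers of exocrine pancreas had medians of 3.31, 3.05 and 2.71 in the DIO+OF arrays, against 3.25, 5.26 and 3.42 in NOR arrays 1 to 3, and the 27 markers of oocyte and egg coat had medians of 1.83, 1.84 and 1.80 in DIO+OF, against 1.92, 2.61 and 1.90 in NOR. NOR replicate 2 was thus the highest of the 6 arrays for both lists. The 32 leukocyte markers had overlapping medians of 3.22, 3.81 and 2.85 in DIO+OF, against 2.51, 3.68 and 2.9 in NOR. They leaned the other way, with a log2 fold change above 0 in 24, against 9891 of all 20916 genes. In bulk liver, fewer cells of a type and less RNA per cell cannot be told apart.

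At a Benjamini-Hochberg adjusted p under 0.05 (limma, all 17 arrays), 61 of 75212 probe sets differed between DIO+OF and NOR, which is 0.0811% of those tested, 35 of them higher (0.0465%) and 26 lower (0.0346%) in DIO+OF. Without adjustment 5671 probe sets had a p under 0.05. On simulated data the same fit called more unchanged probe sets than an adjusted p under 0.05 stands for. The calls here may hold more false ones than that threshold states. The simulation took the spread estimated in each line as the true one, so it cannot tell whether they do. The count was 14 in a fit of the 9 HBx,src arrays and 5 in a fit of the 6 arrays alone, in which the other arrays lend no estimate of the spread. The study referred to here is a paper on OF given before irradiation to wild-type fish and to fish of these lines, and it cites another array series. The study's methods used an unadjusted p under 0.05 together with a 2-fold change or more. By that rule 2512 probe sets passed (3.34%), 1330 higher (1.77%) and 1182 lower (1.57%). With each gene represented by 1 probe set, 39 of 20916 genes were called (0.186%), 22 up (0.105%) and 17 down (0.0813%), and 934 passed the methods' threshold (4.47%), 576 up (2.75%) and 358 down (1.71%). Of the called genes 37 have a plain gene name. In all 39 the 3 DIO+OF arrays did not overlap the 3 NOR arrays, as was so for 13.6% of all genes. The median log2 fold change of all genes was −0.02. Of the 39 called genes, 9 were in a list of 43 clock genes.

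**Figure D1:**
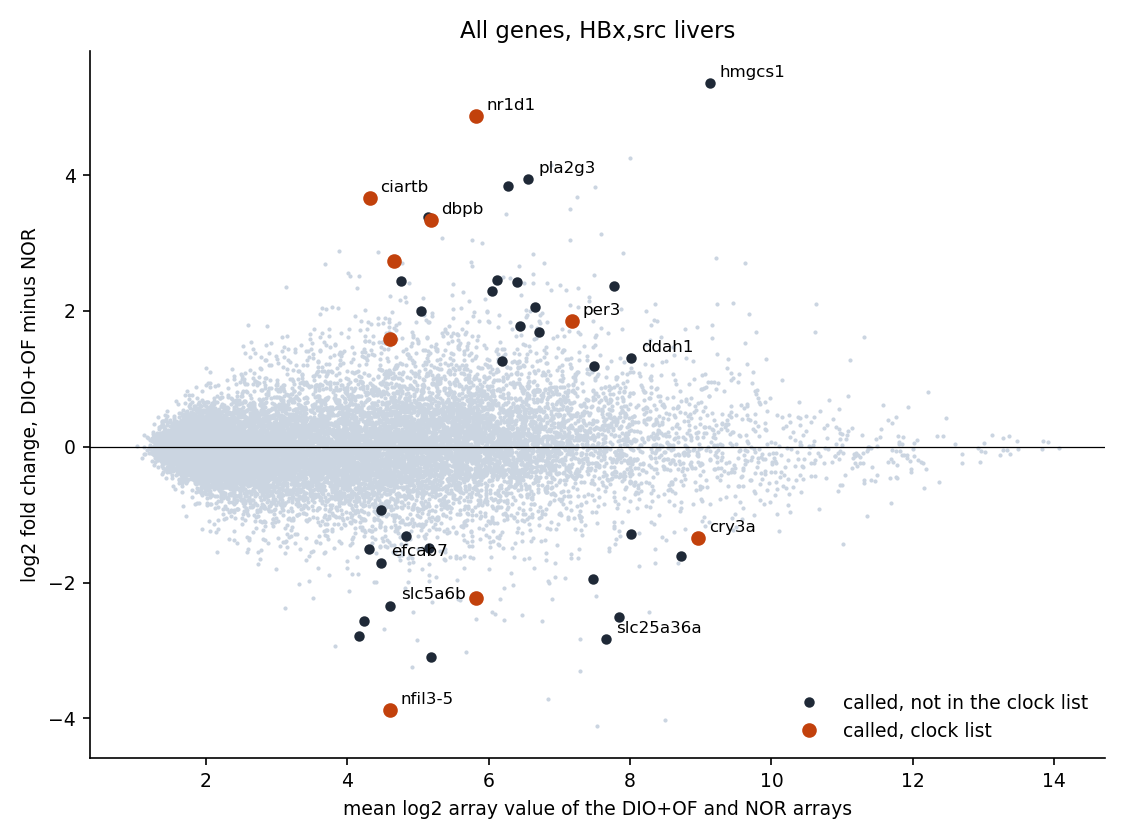
Each point is a gene of HBx,src liver, with its mean log2 array value over the DIO+OF and NOR arrays on the horizontal axis and its log2 fold change, DIO+OF minus NOR, on the vertical axis. The 39 called genes are dark, those of the clock list orange, and hmgcs1 at 5.36 and nfil3-5 at −3.88 mark the ends of the called range.

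The lowest adjusted p of all called genes belonged to a clock gene. Transcripts of nr1d1, which encodes Rev-erb alpha, a repressor of the Bmal1 genes, stood at 8.12, 8.38 and 8.26 in the DIO+OF arrays, against 3.23, 3.39 and 3.54 in the NOR arrays. The replicates of each group lay close together and the groups far apart, with a log2 fold change of 4.87 ± 0.44 (SE, n = 3 each), a 29.2-fold higher level in DIO+OF (adjusted p = 0.00232). The DIO arrays read 2.96, 5.02 and 4.29, so without OF the overfed fish were below every DIO+OF array for this gene. For ciartb, a homolog of the repressor of Clock and Bmal1 known as Chrono, the values were 5.93, 6.11 and 6.42 in DIO+OF and 2.12, 2.68 and 2.68 in NOR, a log2 fold change of 3.66 ± 0.49 (adjusted p = 0.0131). The DIO values of ciartb, 4.56, 4.31 and 3.14, fell between both groups.

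The other called clock genes that rose were an activator at D-box elements, a repressor, a period gene and a cryptochrome. The D-box activator dbpb read 7.27, 6.33 and 6.95 in DIO+OF, against 3.05, 3.52 and 3.98 in NOR (log2 fold change 3.33 ± 0.53, adjusted p = 0.0402). The repressor bhlhe41 (Dec2) read 5.77, 6.25 and 6.05 in DIO+OF and 3.70, 3.61 and 2.57 in NOR (2.73 ± 0.43, adjusted p = 0.038). Here the overfed fish without OF were already high, at 4.51, 5.99 and 5.45. The period gene per3 showed the same order, with 8.65, 7.88 and 7.79 in DIO+OF, 7.67, 8.0 and 7.33 in DIO and 6.07, 6.22 and 6.49 in NOR (DIO+OF minus NOR 1.84 ± 0.27, adjusted p = 0.0269). The cryptochrome cry2 read 5.77, 5.63 and 4.81 in DIO+OF, against 3.93, 3.53 and 4.00 in NOR (1.58 ± 0.27, adjusted p = 0.0492), and its DIO arrays, at 3.61, 4.07 and 4.38, overlapped NOR.

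The 3 called clock genes that fell ran the other way in every array. The transcript of nfil3-5, of the Nfil3 family of repressors that bind the same D-box elements as Dbp and Tef, read 1.59, 3.50 and 2.91 in DIO+OF, against 6.13, 6.95 and 6.56 in NOR, a log2 fold change of −3.88 ± 0.62 and a 14.8-fold lower level (adjusted p = 0.0414). Values in DIO lay between, at 5.23, 4.64 and 5.99. The cryptochrome family member cry3b read 4.30, 4.66 and 5.16 in DIO+OF and 6.81, 7.15 and 6.86 in NOR (−2.24 ± 0.35, adjusted p = 0.038). Its relative cry3a, a brighter probe set, read 8.36, 8.10 and 8.42 in DIO+OF and 9.86, 9.75 and 9.32 in NOR (−1.35 ± 0.20, adjusted p = 0.0302). For cry3a the DIO arrays were the highest of all, at 10.19, 9.94 and 10.01.

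**Figure D2:**
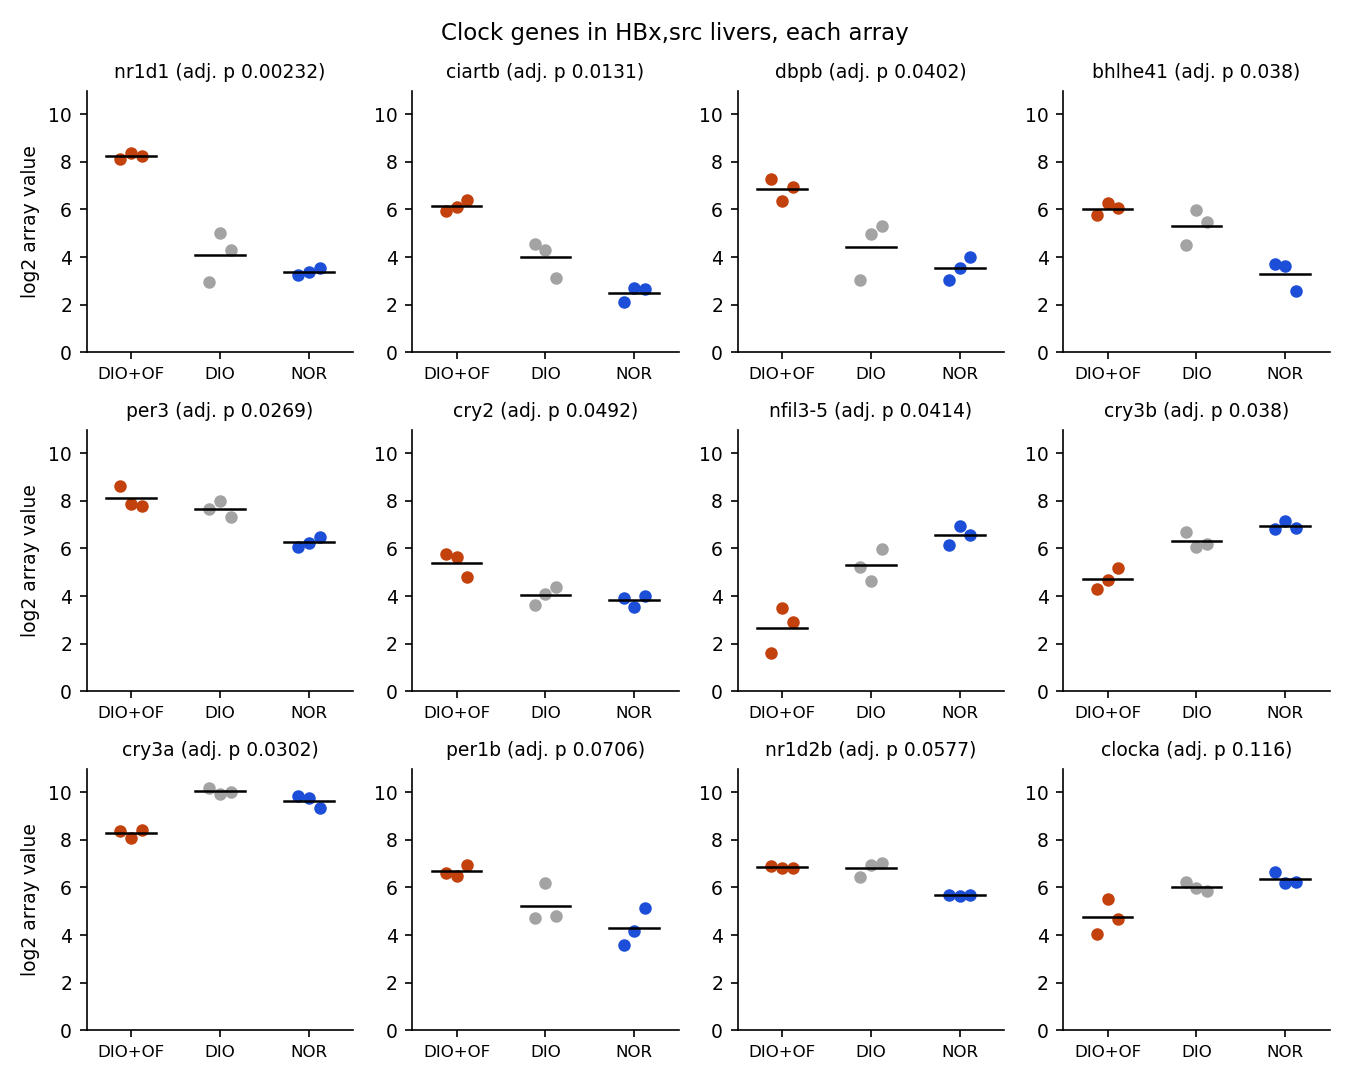
Log2 array values (vertical axis) of 12 clock genes in the DIO+OF, DIO and NOR arrays of HBx,src, each point an array and each bar a group mean, with the adjusted p of DIO+OF against NOR in the titles. For nr1d1 the DIO+OF arrays lie at 8.12 to 8.38 and the NOR arrays at 3.23 to 3.54, while nfil3-5, cry3b, cry3a and clocka are lower in DIO+OF than in NOR.

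Over the whole clock list, 6 of 43 genes were called up and 3 down, against 0.105% and 0.0813% of all genes. These counts were 2 up and 0 down in the fit of the 9 HBx,src arrays, 1 and 0 without NOR replicate 1, without NOR replicate 2 or with the replicate block, and otherwise 2 to 7 up and 0 to 3 down with 1 array left out. In the list 13 genes passed the methods' threshold upward and 6 downward, against 2.75% and 1.71% of all genes. For 26 there was no overlap between the groups (background 13.6% of genes). The median log2 fold change of the list was 0.46, with 29 genes above 0 and 14 under 0. Of all 20916 genes, 9891 were above 0 and 11025 under 0. Several further members missed the adjusted threshold. The Rev-erb beta gene nr1d2b lay at 6.91, 6.80 and 6.81 in DIO+OF and at 5.67, 5.65 and 5.70 in NOR (log2 fold change 1.17 ± 0.20, adjusted p = 0.0577), and its DIO arrays overlapped DIO+OF, at 6.45, 6.96 and 7.01. The period genes per1b and per1a had log2 fold changes of 2.40 ± 0.44 (adjusted p = 0.0706) and 2.04 ± 0.41 (adjusted p = 0.1). The D-box activator tefa had 2.40 ± 0.52 (adjusted p = 0.13). On the lower side, rorcb, a Ror nuclear receptor that activates at the elements Rev-erbs repress, read 3.51, 3.03 and 5.99 in DIO+OF and 7.19, 7.69 and 6.71 in NOR (−3.02 ± 0.61, adjusted p = 0.0989). The core activator clocka read 4.03, 5.50 and 4.69 in DIO+OF, against 6.65, 6.19 and 6.21 in NOR (−1.61 ± 0.34, adjusted p = 0.116). Its partners bmal1a and bmal1b had −0.77 ± 0.43 (adjusted p = 0.784) and −0.78 ± 0.34 (adjusted p = 0.622), with overlapping arrays.

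The 2 steps of the comparison were not alike among clock genes. For nr1d1 the log2 fold change was 0.70 ± 0.44 for DIO minus NOR, the diet step (adjusted p = 0.914), and 4.17 ± 0.44 for DIO+OF minus DIO, the OF step (adjusted p = 0.007). For cry3a the diet step was 0.40 (adjusted p = 0.857) and the OF step −1.76 (adjusted p = 0.007). In per3 and bhlhe41 the diet step was the larger, at 1.41 (adjusted p = 0.24) and 2.02 (adjusted p = 0.343), beside OF steps of 0.44 (adjusted p = 0.607) and 0.71 (adjusted p = 0.594). These steps share arrays with each other and with the comparison of DIO+OF against NOR, so they are its parts and not separate evidence. The diet step called 0 of the 20916 genes (5 probe sets, 0.00665%, with 4491 at an unadjusted p under 0.05) and the OF step 154 (0.736%).

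The largest log2 fold change of the called genes belonged to cholesterol synthesis. For hmgcs1, the cytosolic HMG-CoA synthase near the start of the mevalonate pathway, the arrays read 10.18, 12.36 and 12.87 in DIO+OF, against 7.52, 5.03 and 6.79 in NOR. The groups did not overlap but each spread over more than 2 log2 units. The log2 fold change was 5.36 ± 0.90, a 41.0-fold higher level, at an adjusted p of 0.0492, and 14 of the called genes shared this value just inside the threshold. DIO arrays, at 9.05, 6.04 and 7.03, stayed below DIO+OF.

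Of the 27 measured genes of the cholesterol list, 1 was called up, hmgcs1, against 0.105% of all genes. At the methods' threshold 17 passed upward, against 2.75% of all genes, and none (0) downward. A log2 fold change above 0 was seen for 25, against 9891 of all 20916 genes. The list median was 1.76, against −0.02 for all genes, with 0.06 for the diet step and 1.75 for the OF step. Squalene synthase (fdft1) read 7.77, 10.04 and 10.44 in DIO+OF and 7.02, 3.99 and 5.75 in NOR (3.83 ± 0.71, adjusted p = 0.0706). The sterol dehydrogenase nsdhl had 3.00 ± 0.57 (adjusted p = 0.0794), mevalonate diphosphate decarboxylase (mvda) 3.67 ± 0.84 (adjusted p = 0.157), and squalene epoxidase (sqlea) 4.25 ± 1.18 (adjusted p = 0.271). The rate-limiting HMG-CoA reductase hmgcra read 11.56, 11.39 and 12.10 in DIO+OF, against 10.31, 8.35 and 10.09 in NOR (2.1 ± 0.74, adjusted p = 0.466). The 2 members with a fold change under 0 were lbr and insig2, and the arrays of the groups did not overlap for 11 of the 27 (background 13.6% of genes).

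The regulators of the pathway were measured as well. Transcripts of insig1, which holds Scap and Srebp2 back, read 8.69, 8.07 and 9.28 in DIO+OF and 5.67, 5.90 and 5.33 in NOR, with DIO at 7.96, 6.36 and 6.46 (3.05 ± 0.54, adjusted p = 0.0628). The escort scap had a log2 fold change of 1.1 ± 0.29 (adjusted p = 0.247), and srebf2 had 1.08 ± 0.37 (adjusted p = 0.434). These 3 were higher in each DIO+OF array than in each NOR array without passing the adjusted test. The other Insig gene, insig2, read 6.23, 6.68 and 6.04 in DIO+OF, against 6.51, 6.38 and 6.86 in NOR, with overlapping arrays (−0.26 ± 0.22, adjusted p = 0.927).

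The cholesterol genes also differed between replicates. The list median was 7.73, 8.66 and 9.03 in DIO+OF replicates 1 to 3, against 7.02, 5.03 and 6.16 in NOR replicates 1 to 3 and 6.59, 6.04 and 5.96 in DIO. NOR replicate 2, the array with the highest pancreas and oocyte markers, was the lowest of the 6 arrays for 21 of the 27 genes, and DIO+OF replicate 1 the lowest DIO+OF array for 21 of the 27. Without NOR replicate 2 the median log2 fold change of the list was 0.94 and 7 genes passed the methods' threshold. Over all probe sets the upward passes of that threshold went from 1330 to 913 in this fit. Without DIO+OF replicate 1, 5 genes of the list were called up, but the upward calls over all probe sets rose as well, from 35 to 372. With NOR replicate 1, 2 or 3 or DIO+OF replicate 2 or 3 left out, 0 were called. The fits of the 9 and of the 6 HBx,src arrays also called 0. The call of hmgcs1 held in 3 of the 17 fits with 1 array left out. The part of the other cell types in this list was not tested.

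**Figure D3:**
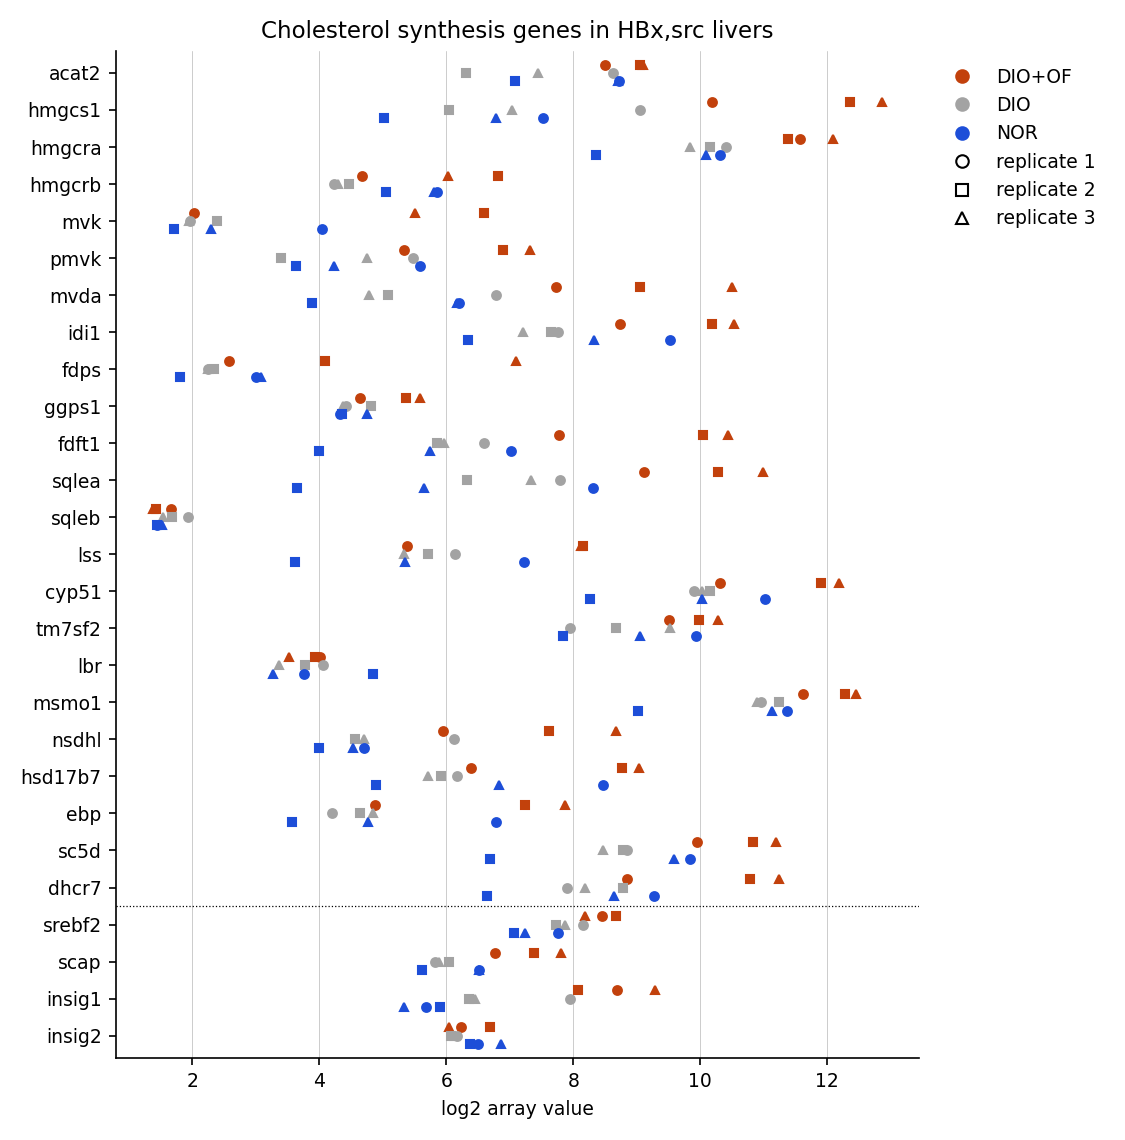
Log2 array values (horizontal axis) of the 27 cholesterol genes in HBx,src, enzymes in pathway order above the dotted line and regulators under it, with colour for the group and marker shape for the replicate. For 11 of the 27 genes all DIO+OF arrays lie to the right of all NOR arrays, hmgcs1 reaches 12.87 in DIO+OF replicate 3, and the NOR replicate 2 square is often the lowest value.

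No gene of the secretory pathway lists passed the adjusted test (0 called). Of 50 genes of transport between endoplasmic reticulum and Golgi, 11 passed the methods' threshold upward, against 2.75% of all genes. In 44 the log2 fold change was above 0, against 9891 of all 20916 genes. The median was 0.57 (−0.40 for the diet step and 1.23 for the OF step). The 11 became 6 without NOR replicate 2, 7 without DIO+OF replicate 3, 21 without NOR replicate 3 and 23, with 6 called, without DIO+OF replicate 1, and the median lay between 0.35 and 0.98 with 1 array left out. Over all probe sets the 1330 upward passes became 913, 1061, 1638 and 2405 in these fits, in that order. Without DIO+OF replicate 1 the upward calls over all probe sets rose from 35 to 372. The coatomer subunit copz2 read 5.74, 5.75 and 7.04 in DIO+OF, against 4.04, 4.44 and 4.16 in NOR (1.96 ± 0.34, adjusted p = 0.0538). Another coatomer subunit, arcn1a, had 1.94 ± 0.45 (adjusted p = 0.166), and sec23b, of the COPII coat that buds from the endoplasmic reticulum, 1.57 ± 0.43 (adjusted p = 0.257). Of 72 genes for folding of proteins inside the endoplasmic reticulum, 11 passed the methods' threshold upward and 1 downward (2.75% and 1.71% of all genes). In 48 the log2 fold change was above 0 and in 24 under 0 (9891 and 11025 of all genes), and the median was 0.26. Without NOR replicate 2 the median was 0.02 and 5 genes passed upward. Without DIO+OF replicate 1 there were 19 upward, 4 of them called, without DIO+OF replicate 2 there were 6 upward and 4 downward, and without DIO+OF replicate 3 there were 8 and 5. Without NOR replicate 1 there were 7 upward, and the median reached 0.57 without NOR replicate 3. The co-chaperone dnajb9a, a target of the unfolded protein response, had 2.70 ± 0.54 (adjusted p = 0.0958), and the signal recognition particle subunit srp9 1.99 ± 0.45 (adjusted p = 0.148). The folding list had a median of −0.66 in the diet step and of 0.87 in the OF step, so its 2 steps had medians of opposite sign. In the proteasome list 38 of 47 genes had a fold change under 0, against 11025 of all 20916 genes, with 0 at the methods' threshold. The median of −0.35 was −0.09 without NOR replicate 3 and −0.56 without NOR replicate 2.

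Among 26 transcription factors of hepatocytes, 1 was called up, nr5a2, against 0.105% of all genes. This gene encodes Lrh-1, a nuclear receptor of bile acid and cholesterol metabolism, and read 7.80, 8.11 and 8.37 in DIO+OF, against 7.01, 6.57 and 7.12 in NOR (1.19 ± 0.20, adjusted p = 0.0492). Its call held in 1 of the 17 fits with 1 array left out, and its adjusted p in the 9 HBx,src arrays was 0.21. In HBx,src,p53 nr5a2 had −0.70 ± 0.22 (adjusted p = 0.104), and the difference between the lines was called (adjusted p = 0.00794). The hepatocyte master factor hnf4a read 8.36, 8.80 and 9.52 in DIO+OF, 7.21, 7.71 and 7.70 in DIO and 7.39, 6.50 and 6.71 in NOR, a log2 fold change of 2.03 ± 0.34 just outside the threshold (adjusted p = 0.052). In the fit of the 9 HBx,src arrays its adjusted p was 0.206. The same contrast in HBx,src,p53 gave hnf4a 0.03 ± 0.385 (adjusted p = 0.991), and the difference between the lines was not called (adjusted p = 0.0575). The list as a whole had 6 genes at the methods' threshold, all up, against 2.75% of all genes. Its median was 0.25, against −0.02 for all genes.

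A list of 30 measured genes held those the study names for its other assays and relatives of some of them. In those assays OF was given before irradiation, which the titles of the arrays used here do not name. Against 0.105% of all genes, 1 of the list was called up, ddah1. It encodes the enzyme that degrades the nitric oxide synthase inhibitor ADMA. The arrays read 8.64, 8.56 and 8.77 in DIO+OF and 7.40, 7.08 and 7.59 in NOR, with DIO at 7.16, 7.10 and 7.04, so the DIO+OF arrays stood apart from both diets without OF (1.3 ± 0.18, adjusted p = 0.0219; OF step 1.56, adjusted p = 0.00752). Fatty acid synthase (fasn) had a log2 fold change of 3.13 ± 1.07 (adjusted p = 0.431), and hsd11b1la, of the family of 11b-hsd1, had 0.14 ± 0.34 (adjusted p = 1). The study does not name its relative hsd11b2, which inactivates cortisol and had −2.85 ± 0.85 (adjusted p = 0.321). The median of this list was 0.05, against −0.02 for all genes. At the methods' threshold 3 passed upward and 3 downward, against 2.75% and 1.71% of all genes.

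In lipid and glucose metabolism no gene of the lists was called. The lipogenic factor mlxipl (Chrebp) read 6.45, 6.85 and 6.02 in DIO+OF, against 7.75, 7.79 and 8.71 in NOR (−1.65 ± 0.28, adjusted p = 0.0555). The enzyme of glyceride synthesis agpat2 had a log2 fold change of 2.15 ± 0.49 (adjusted p = 0.154), and the acyl-CoA synthetase acsl4a 1.79 ± 0.34 (adjusted p = 0.0783). The gatekeeper of mitochondrial fatty acid uptake, cpt1aa, had 1.74 ± 0.42 (adjusted p = 0.185), and mttp, which loads lipid onto apolipoprotein B, 1.37 ± 0.31 (adjusted p = 0.157). The medians of the lists of fatty acid synthesis and of fatty acid oxidation were 0.26 and 0.04. The gluconeogenic enzyme pck1 read 6.51, 8.13 and 10.18 in DIO+OF, 3.05, 3.85 and 3.72 in DIO and 3.30, 3.19 and 3.76 in NOR, a fold change of 4.86 ± 1.1 on the log2 scale (adjusted p = 0.15), with DIO+OF arrays more than 3 log2 units apart. The pyruvate dehydrogenase kinase pdk4 had −1.64 ± 0.39 (adjusted p = 0.179).

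The remaining called genes that rose were of mixed function. The secreted phospholipase A2 gene pla2g3 read 8.10, 8.10 and 9.38 in DIO+OF and 5.49, 3.52 and 4.76 in NOR (3.94 ± 0.64, adjusted p = 0.046). Transcripts of papss2b, whose enzyme makes the sulfate donor PAPS, read 5.93, 6.67 and 7.88 in DIO+OF and 3.70, 3.33 and 3.31 in NOR (3.38 ± 0.57, adjusted p = 0.0492), and the DIO arrays stayed at 3.55, 3.28 and 3.40. The lysosomal membrane gene scarb2a (Limp-2) had the lowest adjusted p among these, with 8.37, 8.80 and 9.69 in DIO+OF and 6.25, 6.65 and 6.85 in NOR (2.37 ± 0.31, adjusted p = 0.0118). In each of these the DIO+OF arrays lay above the DIO arrays too.

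The gene amd1, for the decarboxylase that commits S-adenosylmethionine to polyamine synthesis, stood at 6.73, 7.22 and 7.62 in DIO+OF and at 4.72, 4.68 and 5.32 in NOR (2.29 ± 0.31, adjusted p = 0.0156). The sphingolipid regulator ormdl3 had a log2 fold change of 2.43 ± 0.36 (adjusted p = 0.0302), and the peroxisomal membrane gene pxmp4 2.00 ± 0.33 (adjusted p = 0.0492). The others that rose were tmem263 (2.45 ± 0.41), tent5ba of a family of poly(A) polymerases (2.44 ± 0.37), the kinase family gene stk40 (1.78 ± 0.30), the nucleolar deubiquitinase usp36 (1.68 ± 0.26) and the endosomal Rab5 partner rabep1 (1.26 ± 0.21), at adjusted p values of 0.0337 to 0.0492.

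Among the genes that fell, 2 had the lowest adjusted p after nr1d1. For efcab7, an EF-hand gene known for its role in cilia in mammals, the arrays read 3.98, 3.57 and 3.31 in DIO+OF and 5.16, 5.48 and 5.34 in NOR (−1.71 ± 0.18, adjusted p = 0.00425). For slc5a6b, of the carrier family that takes up biotin and pantothenate, they read 3.04, 3.38 and 3.90 in DIO+OF and 5.91, 5.87 and 5.55 in NOR (−2.34 ± 0.27, adjusted p = 0.00634). In both genes the DIO arrays, at 5.20, 5.39 and 5.08 for efcab7 and 5.89, 5.54 and 6.50 for slc5a6b, stayed above every DIO+OF array.

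Among further genes that fell, txnipa and stbd1 have roles in glucose handling. The gene txnipa, of the thioredoxin-interacting proteins that restrain glucose uptake and are induced by glucose, read 6.63, 7.05 and 6.08 in DIO+OF and 9.51, 9.0 and 8.77 in NOR (−2.51 ± 0.39, adjusted p = 0.038). The gene stbd1, whose product binds glycogen, read 6.75, 6.76 and 6.00 in DIO+OF and 8.92, 8.40 and 8.04 in NOR (−1.95 ± 0.33, adjusted p = 0.0492). The mitochondrial pyrimidine nucleotide carrier slc25a36a read 7.00, 6.95 and 4.77 in DIO+OF and 9.30, 9.14 and 8.80 in NOR (−2.84 ± 0.47, adjusted p = 0.0492). For txnipa, stbd1 and slc25a36a the diet step was −0.01, 0.13 and 0.03, and the OF step was −2.50, −2.08 and −2.86.

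The rest of the genes that fell were baiap2l1a, a link of membrane and actin (−3.10 ± 0.40, adjusted p = 0.0118), rims2b, known from the release of vesicles (−2.56 ± 0.39, adjusted p = 0.0337), cuedc1b (−1.51 ± 0.21, adjusted p = 0.0219), the BET bromodomain gene brd3b (−1.31 ± 0.21, adjusted p = 0.0402), and, each at an adjusted p of 0.0492, ndrg1a (−1.62 ± 0.27), the carbonyl reductase dhrs4 (−1.49 ± 0.25), cirbpa (−1.28 ± 0.21) and the translation factor paip1 (−0.93 ± 0.16). For brd3b, 3 other probe sets had log2 fold changes of −0.74 to 0.06, and 0 of them were called. The RNA-binding protein gene cirbpa read 7.13, 7.46 and 7.54 in DIO+OF, 7.74, 8.19 and 8.42 in DIO and 8.44, 8.91 and 8.62 in NOR. Its relatives in mammals are induced by cold and oscillate with the day.

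Of 59 cell cycle genes, 1 was called up, against 0.105% of all genes, and it encodes an inhibitor. The cyclin-dependent kinase inhibitor cdkn1ba (p27) read 7.73, 7.33 and 7.97 in DIO+OF, against 5.40, 5.63 and 5.83 in NOR (2.05 ± 0.33, adjusted p = 0.0427). With 1 of the 6 arrays left out, cdkn1ba stayed called in 1 of 6 fits. Among the other members 7 passed the methods' threshold downward, against 1.71% of all genes, among them the ribonucleotide reductase subunit rrm1 at −1.54 ± 0.44 (adjusted p = 0.28). In 47 of the 59 the log2 fold change was under 0, against 11025 of all 20916 genes. Median array values of the list were 2.3, 2.1 and 2.3 in DIO+OF and 2.2, 2.8 and 2.2 in NOR replicates 1 to 3. Medians of all probe sets in these arrays were 2.1 to 2.15, so many members were dim. The median log2 fold change of the list was −0.29, with −0.30 for the diet step and −0.02 for the OF step. It was −0.10 without NOR replicate 2. The 7 genes became 3 without DIO+OF replicate 2, 4 without DIO+OF replicate 1 or NOR replicate 2, and 12 without NOR replicate 3. Over all probe sets the 1182 downward passes became 1317, 1561, 1146 and 1570 in these fits, in that order.

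**Figure D4:**
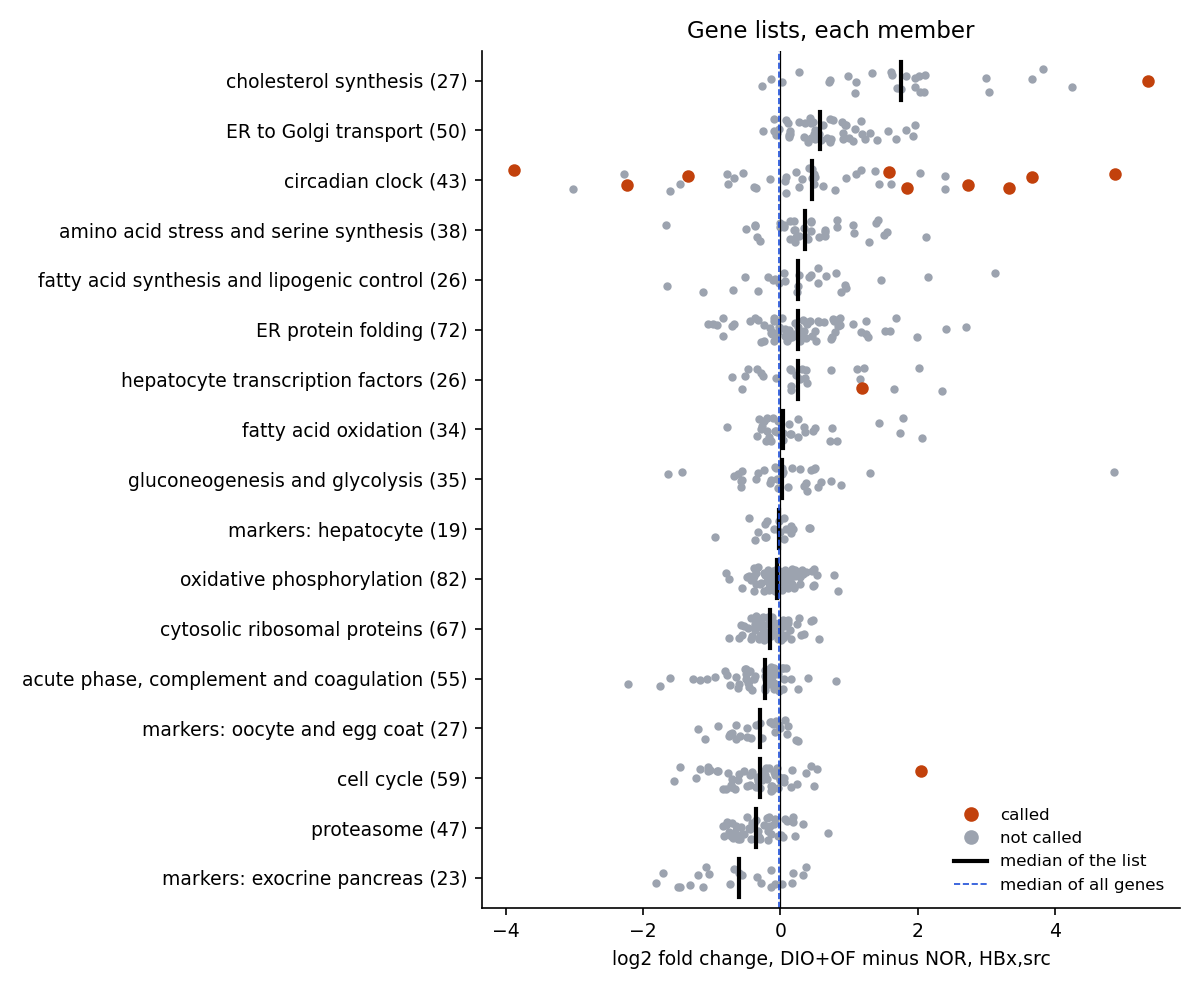
Log2 fold changes, DIO+OF minus NOR in HBx,src (horizontal axis), of the members of 17 gene lists with the number of measured genes in parentheses, called genes in orange, the list median as a black bar and the median of all genes as a dashed line. Cholesterol synthesis has the highest median, at 1.76, and the exocrine pancreas markers the lowest, at −0.60, while called clock genes lie at both ends.

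The same contrast was available in HBx,src,p53 fish of batch 2, with 3 DIO+OF and 2 NOR arrays. It called 1312 genes (6.27%), and the difference between the lines called 1085 (5.19%), or 2155 of all probe sets (2.87%). In DIO+OF replicate 3 of that line the yolk protein gene vtg2 read 2.76. The other DIO+OF arrays read 13.87 and 13.86, and NOR 13.95 and 13.98. The test of the difference between the lines was therefore also run without this array, for single genes and for the count of probe sets. List medians and list counts of HBx,src,p53 are given with all arrays only. Line and batch coincide and cannot be told apart. The arrays of batch 2 had medians of 2.55 to 2.68 and mean correlations within their groups of 0.896 to 0.916. Their interquartile ranges were 2.89 to 3.34, against 1.80 to 2.03 in batch 1, so values were more widely spread in batch 2. After quantile normalization the count of 2155 was 1860.

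All 9 clock genes called in HBx,src had the same sign in HBx,src,p53, and 6 were called there, against 6.27% of all genes. These 6 were dbpb at 3.60, nr1d1 at 2.81, cry2 at 2.76, bhlhe41 at 2.26, per3 at 1.72 and cry3b at −1.98. The difference between the lines was called for 0 of the 9 with all arrays. Without the array that stands apart it was called for 1, ciartb, at 3.66 in HBx,src and 0.88 in HBx,src,p53 (adjusted p of the difference 0.0253, and 0.0613 with all arrays). Outside the 9, nfil3-2 ran in opposite directions, with −2.28 in HBx,src and 2.43 in HBx,src,p53 (adjusted p of the difference 0.00917). So did npas2, a relative of Clock, with 0.79 and −1.67 (0.032, and 0.0638 without the array that stands apart), while bmal2, a relative of Bmal1, had −0.38 and −2.77 (0.0219). These were the 3 genes of the 43 in the clock list for which the difference between the lines was called, against 5.19% of all genes. In HBx,src none of the 3 was itself called for DIO+OF against NOR (adjusted p = 0.141, 0.666 and 0.929).

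Of the 28 other called genes with a plain name, 3 had the same sign in HBx,src,p53. For 25 the difference between the lines was called, against 5.19% of all genes, and for 24 without the array that stands apart. The 3 were ddah1, at 1.3 in HBx,src and 1.53 in HBx,src,p53 (called in both), cirbpa, at −1.28 and −1.35 (called in both), and usp36, at 1.68 and 0.69. In HBx,src,p53 itself 8 of the 28 were called in the opposite direction, against 6.27% of all genes called there in either direction. Others lay near 0 there, such as scarb2a at −0.01 ± 0.34 and dhrs4 at 0.08 ± 0.28. Among the 8, hmgcs1 had 5.36 in HBx,src against −4.20 in HBx,src,p53 (adjusted p of the difference 0.00553), and slc5a6b −2.34 against 2.70 (0.000137). Values of txnipa were −2.51 against 2.39 (0.00274), and those of slc25a36a −2.84 against 3.04 (0.00274). These genes were chosen by their calls in HBx,src, which favours large values in that line. The cholesterol list had a median of 1.76 in HBx,src and −2.77 in HBx,src,p53, where 12 of its genes were called down (2.86% of all genes). Between the lines 16 of its 27 genes differed, against 5.19% of all genes. For ER to Golgi transport the medians were 0.57 and −1.52, and 21 of 50 genes differed (5.19% of all genes). For ER protein folding they were 0.26 and −1.59, and 26 of 72 differed (5.19% of all genes).

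**Figure D5:**
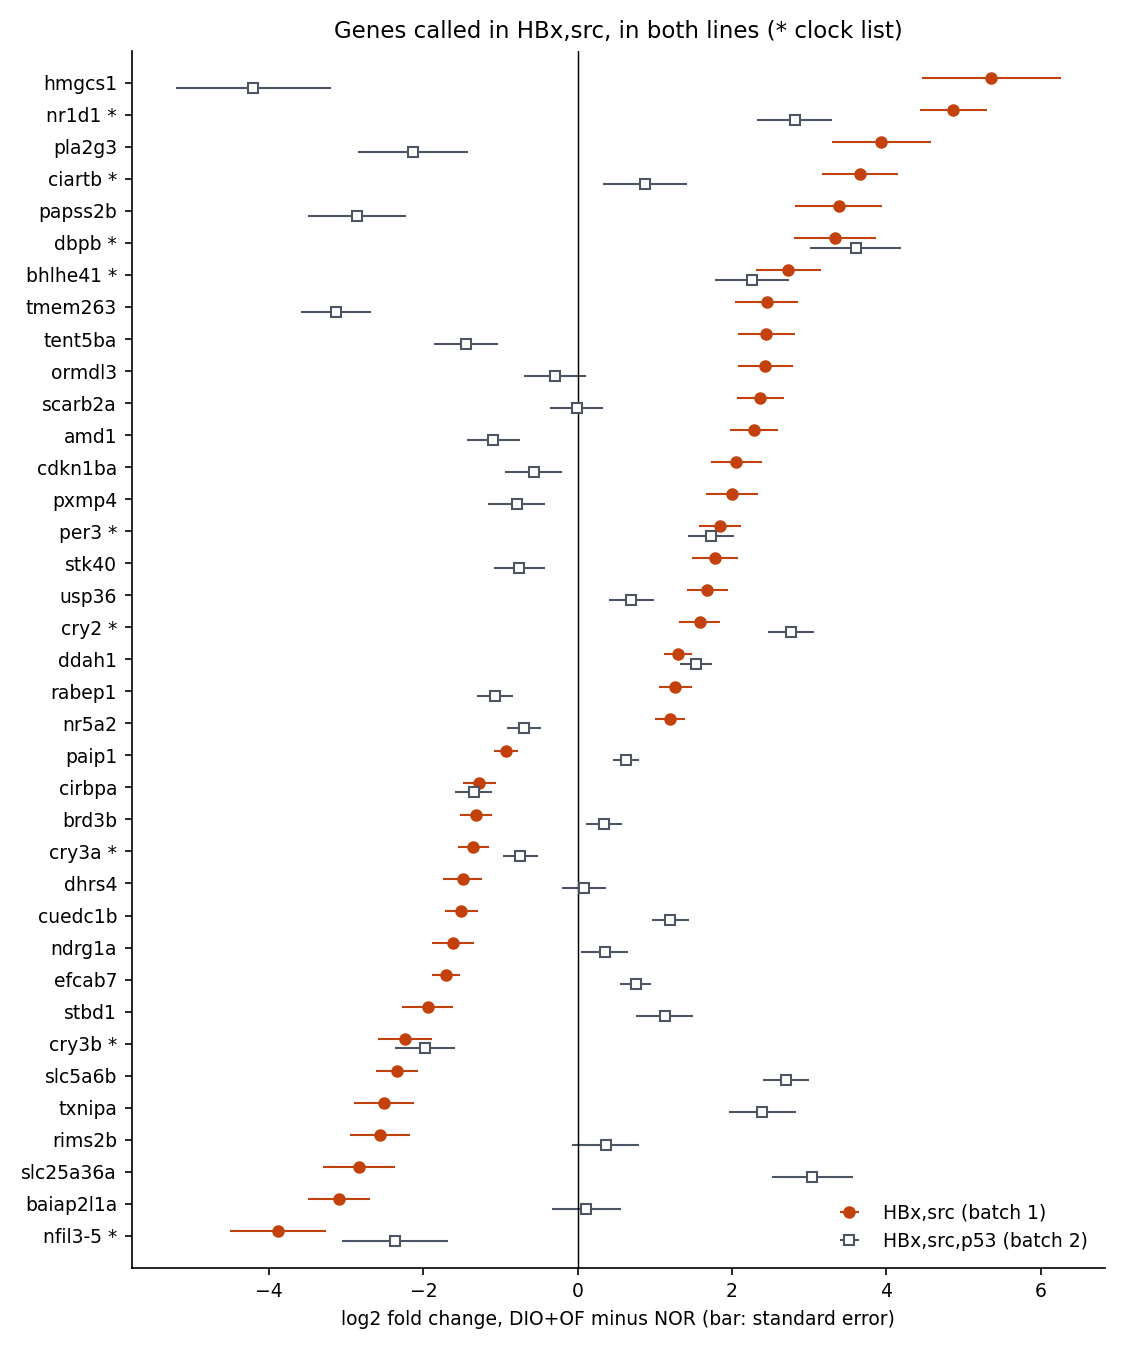
Log2 fold changes, DIO+OF minus NOR, with standard errors (horizontal axis) of the 37 called genes with a plain name, filled circles for HBx,src and open squares for HBx,src,p53, and an asterisk for the clock list. The 9 clock genes lie on the same side of 0 in both lines. Of the other 28, 25 lie on opposite sides, and 8 of these were called in HBx,src,p53, against 6.27% of all genes.

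Calls of single genes leaned on single arrays to a different degree. Of the 37 called genes with a plain name, nr1d1 and efcab7 stayed called whichever of the 17 arrays was left out. In the fit of the 9 HBx,src arrays 2 stayed called, nr1d1 (adjusted p = 0.0395) and ciartb (adjusted p = 0.0432). Without NOR replicate 2 there were 2, without NOR replicate 1 there were 4, and without DIO+OF replicate 1 all 37. That last fit called 523 of all probe sets. None (0) of the 37 changed sign under any alternative that was run. Leaving out an array could not change a sign, since the DIO+OF and NOR arrays of these genes did not overlap. Fits that change only the estimate of the spread keep the same fold change. The sign is thus no measure of how firm these calls are.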

How the data were processed

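Zebrafish liver RNA was hybridised to 17 ZebGene 1.1 ST arrays, for which the authors deposited normalized log2 expression of 75212 probe sets on each array. The labels name Transcriptome Analysis Console. How it normalized the signals, its version and the genome build were not given in the sources used here, and that the values are on a log2 scale was inferred from their range. A platform annotation paired 30358 probe sets with 1 gene symbol, 1015 with several and 43839 with none listed, giving 20916 genes, each represented by its probe set with the highest mean over the 9 HBx,src arrays. On all arrays, 14289 probe sets were equal to some other probe set.

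A linear model with 1 mean for each of 6 groups was fitted in limma 3.58.1 (R 4.3.3; residual df 11, prior df 2.67), with Benjamini-Hochberg adjustment over all 75212 probe sets and a call at an adjusted p under 0.05. Adjusted p values, log2 fold changes and standard errors are from this fit. All arrays were used because 3 against 3 leave few degrees of freedom. In probe sets with a mean above 4 the median residual SD was 0.4743 in HBx,src and 0.3990 in HBx,src,p53, so the shared estimate there draws on a less variable line. The fit was tested on simulated data with each line's own spread. More unchanged probe sets were called there than an adjusted p under 0.05 stands for. The simulated spread of each probe set was its estimate from these few arrays, so whether the data themselves hold such an excess, and its size, is not known. Tables and figures used Python 3.11.15, pandas 2.3.3 and matplotlib 3.10.9.

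The members and the 35 gene lists (1269 genes matched of 1397 names) were chosen with earlier results of these data known, so lists are given by counts and medians, without a list test. Named genes were the 15 highest and 15 lowest called genes with a plain name whose arrays did not overlap, in each list the 4 or fewer genes of lowest p, and genes the study names. The genes usp36, rabep1, cry2, paip1, nr1d2b, per1b, tefa, rorcb, clocka, nfil3-2, npas2, bmal2, bmal1a, bmal1b, insig2, mvda, sqlea, scap, srebf2 and hmgcra were chosen after their values were seen.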

Additional observations from a re-analysis of the deposited data

Results flagged for a closer look

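For 43 genes named above the difference between DIO+OF and NOR differed between the lines by the test of that difference in limma (adjusted p of 0.000137 to 0.0413). The values here are log2 differences, the fold change in HBx,src minus that in HBx,src,p53. Line and batch cannot be told apart, the called genes were picked by their values in HBx,src, and the background was 5.19% of genes.

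Among the called genes that rose in HBx,src, the differences were 9.56 for hmgcs1, 6.24 for papss2b, 6.07 for pla2g3, 5.58 for tmem263, 3.89 for tent5ba, 3.38 for amd1, 2.79 for pxmp4, 2.73 for ormdl3, 2.62 for cdkn1ba, 2.53 for stk40, 2.38 for scarb2a, 2.34 for rabep1 and 1.89 for nr5a2. In HBx,src,p53 the log2 fold changes of these 13 genes lay between −4.20 and −0.01. Among the called genes that fell, the differences were −5.88 for slc25a36a, −5.04 for slc5a6b, −4.90 for txnipa, −3.21 for baiap2l1a, −3.07 for stbd1, −2.93 for rims2b, −2.71 for cuedc1b, −2.46 for efcab7, −1.96 for ndrg1a, −1.65 for brd3b, −1.57 for dhrs4 and −1.56 for paip1.

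Among genes that were not called in HBx,src, those of cholesterol synthesis differed by 9.03 (sqlea), 7.47 (fdft1), 7.42 (mvda), 4.34 (nsdhl) and 2.42 (scap). Genes of the secretory pathway differed by 6.52 (dnajb9a), 4.93 (arcn1a), 4.18 (srp9) and 3.70 (copz2). In lipid and glucose metabolism the differences were 3.45 for agpat2, 2.64 for cpt1aa, 2.54 for mttp, −2.52 for mlxipl and −3.92 for pdk4. The clock genes nfil3-2, npas2 and bmal2 differed by −4.72, 2.46 and 2.39, and hsd11b2 by −6.15. When DIO+OF replicate 3 of the HBx,src,p53 line was left out, the test was no longer passed by dhrs4 (adjusted p = 0.0793), agpat2 (0.0541), npas2 (0.0638) and cpt1aa (0.0676), and the other 39 still passed it.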

How the results depend on the processing

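The count of 61 probe sets was 14 with the 9 HBx,src arrays, 5 with the 6 arrays, 109 with 1 weight per array, 115 after quantile normalization, 117 of 30358 among probe sets with 1 symbol, 37 with a trended and robust prior, 106 of 20916 with the mean of a gene's probe sets, and 0 without moderation in the 6 arrays (4434 at an unadjusted p under 0.05). With 1 weight per line, centring, the dimmest 40% left out, or equal probe sets counted once it was 89, 43, 89 and 86. Leaving out 1 array gave 6 to 523. It was 17, 6 and 27 without NOR replicates 1 to 3, 37 and 31 without DIO replicates 2 and 3, 523 and 34 without DIO+OF replicates 1 and 3, and, through the shared spread, 33, 33 and 32 without DIO replicates 1 to 3 and 29 and 23 without DIO+OF replicates 1 and 2 of HBx,src,p53.

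The count of 2512 at the methods' threshold was 1241 among probe sets with 1 symbol, 1135 without moderation and 798 for genes by the mean of their probe sets, and 2047 to 3966 with 1 array left out, highest without DIO+OF replicate 1. The count of 2155 that differ between the lines was 618 to 3589 with 1 array left out, at 1255 and 941 without NOR replicates 1 and 2, 3589 and 1054 without DIO+OF replicates 1 and 3, and, in HBx,src,p53, 1219 and 618 without NOR replicates 1 and 2 and 992 and 1322 without DIO+OF replicates 2 and 3. The cause of these shifts was not tested, beyond the smaller number of probe sets, genes or arrays in some.

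The replicate numbers of the titles did not pair the samples (correlations of same-numbered deviations of −0.05, −0.066 and −0.011). With the replicate block 2 probe sets were called, those of nr1d1 (adjusted p = 0.0345) and ormdl3 (adjusted p = 0.0404), and 911 differed between the lines.

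Of the 74 genes run under all alternatives, 1 changed sign, hsd11b1la, at −0.0583 to 0.285 with 1 array left out and under 0 without NOR replicate 2 or DIO+OF replicate 3. In genes whose groups do not overlap, leaving out an array cannot change the sign. Of the 37 called genes with a plain name, 37 stayed called with either weighting, 34 after quantile normalization, 23 after centring, 18 with the trended prior and 2 in the 9 arrays. Among those with further probe sets, another one was called for scarb2a and per3 only. For hmgcs1, dbpb, tmem263, tent5ba, cry2, cry3a, cry3b, cuedc1b and rims2b, 1 other probe set had the same sign without being called. For brd3b, 2 of 3 others had the same sign and 0 were called. Medians were run for 9 lists (clock, cholesterol, ER folding, ER to Golgi, cell cycle, proteasome, ribosome biogenesis, pancreas and oocyte markers) and kept their sign, except for ribosome biogenesis, whose median was 0.00. With 3 arrays per group, smaller differences were not detectable, and the 43839 probe sets without a listed symbol could not be named.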
